A study of Homo sapiens with 16 samples.

Results

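Transcripts of 44 genes of the interferon response and of nucleic acid sensing were measured in SK-N-BE(2), an established line of human neuroblastoma cells that carries amplified MYCN. The genes were chosen by symbol, as a named list of the pathway, and all 44 were found among the 63187 genes of the count table. They comprise 10 sensors of nucleic acids, 3 adaptors or kinases that pass the signal on, 5 transcription factors, 18 antiviral effectors, 3 genes of the ISG15 modification system and 5 genes of ubiquitin or ADP-ribose transfer. The 16 RNA-seq libraries form 4 groups of 4. WT are wild-type cells of the line. FL cells were transfected with full-length HIF-2α, NCTAD cells with ΔN-CTAD and cIDR cells with Δc-IDR, the names of the HIF-2α variants in the series' design text. The deposited library names differ from these labels: they call the line BE2c, the WT libraries CTRL, the FL libraries WT and the NCTAD libraries NTAD. Each library was assigned by the sample record that quotes its name. HIF-2α is the oxygen-regulated transcription factor encoded by EPAS1, and all groups grew at 21% oxygen. Replicate numbers 1 to 4 are also given as batches, so each batch holds 1 library of each group. The labels give neither the vector nor a harvest time, and do not say if WT was mock transfected, so a response to transfection and a response to HIF-2α cannot be told apart in any comparison with WT. No label says that replicates were separate cultures beyond their batch, and p-values measure only the spread between these libraries.

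Cells detect foreign or misplaced nucleic acids with receptors such as RIG-I, MDA5 (IFIH1) and TLR3 for RNA and cGAS (CGAS) for DNA. Their adaptors MAVS and STING1 activate the kinase TBK1, which phosphorylates IRF3 and IRF7 to switch on type I interferon genes. Secreted interferon acts back through the IFNAR1 and IFNAR2 receptors, and a complex that contains STAT2 and IRF9 then binds the interferon-stimulated response element, whose core is a repeat of GAAA, in front of genes such as ISG15, the IFIT genes and MX1. Plasmid DNA and in vitro made RNA are known triggers of these sensors.

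The promoters of 6 members are printed to show this element in genes with different levels in these cells. HERC5 and IFI44L had 0 counts in all 16 libraries, ISG15 was the member with opposite directions in batch 2 and the other batches, and IFIT1, IFIT5 and BST2 differed between batch 2 and the others. Each sequence runs 5′ to 3′ on the gene's strand from 250 bases before its start to 10 after it, from RefSeq on GRCh38.p14. Capitals mark the doubled GAAA element, here GAAA, any 2 bases and GAAA again, on either strand (TTTC, any 2 bases and TTTC where it lies on the opposite one). HERC5 lies at chr4:88456869-88457128 on the plus strand, IFI44L at chr1:78620198-78620457 on the plus strand, ISG15 at chr1:1013247-1013506 on the plus strand, IFIT1 at chr10:89392373-89392632 on the plus strand, IFIT5 at chr10:89414318-89414577 on the plus strand and BST2 at chr19:17405621-17405880 on the minus strand.
HERC5: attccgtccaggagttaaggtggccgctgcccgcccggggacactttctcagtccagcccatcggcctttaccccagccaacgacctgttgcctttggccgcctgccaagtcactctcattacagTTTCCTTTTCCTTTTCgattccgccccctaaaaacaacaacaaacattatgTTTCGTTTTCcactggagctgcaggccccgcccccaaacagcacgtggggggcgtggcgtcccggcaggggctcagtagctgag
IFI44L: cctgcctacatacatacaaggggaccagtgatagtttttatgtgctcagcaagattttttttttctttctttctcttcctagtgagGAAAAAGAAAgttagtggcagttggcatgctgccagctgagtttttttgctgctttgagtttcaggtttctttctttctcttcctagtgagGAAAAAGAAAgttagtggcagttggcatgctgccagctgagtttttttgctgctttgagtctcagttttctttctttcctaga
ISG15: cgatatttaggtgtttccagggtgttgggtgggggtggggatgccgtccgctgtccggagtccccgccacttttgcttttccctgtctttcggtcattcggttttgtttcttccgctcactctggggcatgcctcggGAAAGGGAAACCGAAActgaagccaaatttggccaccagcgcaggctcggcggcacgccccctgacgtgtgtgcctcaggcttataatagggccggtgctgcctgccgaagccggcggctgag
IFIT1: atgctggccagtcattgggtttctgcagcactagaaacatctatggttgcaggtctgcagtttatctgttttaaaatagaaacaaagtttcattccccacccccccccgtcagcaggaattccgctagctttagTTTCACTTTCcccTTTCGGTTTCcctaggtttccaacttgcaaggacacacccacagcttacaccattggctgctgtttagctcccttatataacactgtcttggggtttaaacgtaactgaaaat
IFIT5: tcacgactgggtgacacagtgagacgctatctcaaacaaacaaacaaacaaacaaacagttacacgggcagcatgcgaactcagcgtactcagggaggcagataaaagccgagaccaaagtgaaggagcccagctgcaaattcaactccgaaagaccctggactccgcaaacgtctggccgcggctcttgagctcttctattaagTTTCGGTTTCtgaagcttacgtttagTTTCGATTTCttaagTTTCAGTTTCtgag
BST2: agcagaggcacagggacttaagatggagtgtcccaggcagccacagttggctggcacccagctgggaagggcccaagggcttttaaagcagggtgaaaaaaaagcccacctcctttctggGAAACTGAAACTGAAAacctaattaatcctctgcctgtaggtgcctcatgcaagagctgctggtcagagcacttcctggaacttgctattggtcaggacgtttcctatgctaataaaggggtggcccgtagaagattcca

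Of the 44 members, 33 matched an entry of the RefSeq promoter table, whose windows of 300 bases run from 250 before to 50 after a start. The doubled GAAA element occurred on either strand for 24 of these 33 (72.7%), against 4.38% of all 27305 genes of the table. By single windows it was in 28 of the 42 of members and in 3.57% of all 35116. The members were chosen as genes of the pathway that acts through this element. Their higher share thus reflects that choice and is not a result of these libraries. The element was present in 8 of the 9 matched members that were too low to test and in 16 of the 24 that were tested. TTCNNNGAA, the core of the gamma-interferon-activated site, which can overlap the doubled GAAA element, occurred for 9 of the 33 members (27.3%) and 9.38% of all genes. The HIF core ACGTG occurred for 10 of the 33 (30.3%) and 24.9% of all genes, and GCGTG, the other HIF core, for 9 of the 33 (27.3%) and 40.6%. The members matched without the doubled GAAA element were ADAR, IRF1, IRF9, MAVS, OAS1, SAMD9L, STAT2, TBK1 and TRIM25.

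Libraries held 38.6 to 56.1 M estimated counts (M, 1e6). CPM are counts per 1e6 counts of the tested genes of a library, with that total scaled between libraries. At this depth a count of 0, which allows up to 3, leaves room for 0.0528 to 0.0812 CPM in a single library. These limits cover counting error only. EPAS1 had 13.0 to 28.1 CPM in the 4 WT libraries and 1320 to 5852 CPM in the 12 transfected ones. This separates WT from transfected libraries but does not show which construct a library carried. For batches 1 to 4 EPAS1 had 1691, 2001, 3580 and 3164 CPM in FL, 2203, 1320, 4228 and 3655 CPM in NCTAD and 4078, 2189, 5852 and 5816 CPM in cIDR. In 4 of 4 batches the cIDR library exceeded the FL library, and the ratio to the WT library of the same batch, though not the level itself for FL, was lowest in batch 2 for each construct. The part of this difference in the comparisons between constructs and between batches was not tested. The line's own markers were high, with MYCN at a mean of 1980 TPM (transcripts per 1e6 transcripts, which accounts for length). Of 12 immune cell markers, MS4A1, NKG7 and LILRA4 were at 0 in all libraries and PTPRC had 0 to 2 counts, while CD14 reached 84 counts. The libraries of batch 2 stood apart from the other 12 in many genes, as described with the batch results.

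The sensors split into 5 genes that passed the low-count filter and 5 that did not. ADAR, which edits double-stranded RNA and so limits sensing, was the highest member of all with a mean of 79.8 TPM. OAS3 and OAS1, oligoadenylate synthetases that sense double-stranded RNA, had means of 36.5 and 12.3 TPM, and EIF2AK2 (PKR, a kinase that stops translation on double-stranded RNA) had 17.1 TPM. CGAS, the DNA sensor, was the lowest tested sensor with 0.135 TPM, from 3 to 28 counts per library. The other 5 sensors had few counts: IFIH1 had 0 to 3 counts, OAS2 1 to 8, OASL 0 to 6, TLR3 0 to 9 and DHX58, a regulator of RIG-I-like receptors, 1 to 16. Counts this low give no stable difference between libraries, and these 5 were not tested. In TPM, DHX58 was close to CGAS, with group means of 0.115 to 0.235 against 0.114 to 0.173.

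All 3 adaptors or kinases and all 5 transcription factors were testable. TBK1 had 31.7 TPM and MAVS, the mitochondrial adaptor of RNA sensing, 13.8 TPM. STING1, the adaptor behind CGAS, had 0.627 TPM from 15 to 54 counts. IRF3 was the highest transcription factor at 27.6 TPM. STAT2, IRF1, IRF9 and IRF7 lay between 3.31 TPM (STAT2) and 2.48 TPM (IRF7), in that order, and the neighbours in this order overlapped over the libraries.

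The effectors included several genes near or at 0. IFIT5 and IFI6 led with 20.8 and 19.1 TPM. ISG20, an RNA exonuclease, had 2.30 TPM, IFI27 2.06 TPM and BST2 (tetherin, which holds budding virions at the cell surface) 1.08 TPM. IFIT2, IFIT3 and IFIT1, which bind foreign RNA ends or each other, had 0.854, 0.460 and 0.428 TPM, and RSAD2 (viperin) and SAMD9 each had 0.114 TPM. The other 8 effectors did not pass the low-count filter. MX1, a dynamin-like restriction factor that usually follows interferon closely, had 0 to 9 counts, SAMD9L 0 to 6, IFI44 0 to 3 and MX2 0 or 1. IFITM1, IFITM2 and IFITM3, which block viral entry, had 4 counts together over all 16 libraries, with IFITM1 at 0 throughout, and IFI44L was at 0 throughout. Over all libraries together, 0 counts allow up to 0.00396 CPM.

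ISG15, a ubiquitin-like modifier, had 6.76 TPM, its protease USP18 had 0.308 TPM from 4 to 33 counts, and its ligase HERC5 had 0 counts in every library. In the last set TRIM25, the ubiquitin ligase of RIG-I, had 8.70 TPM. DTX3L and PARP9, which act as a pair, had 3.38 and 2.77 TPM, PARP14 had 1.45 TPM and TRIM21, the cytosolic antibody receptor, had 1.32 TPM. In all, 30 members passed the filter and 14 did not, and 26 had at least 10 counts in every library. Of the 30, 10 lay above and 20 below the median TPM of the 19530 tested genes. The 14 untested members summed to 9 to 21 counts in a WT library and to 8 to 32 in a transfected one.

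Transfection of full-length HIF-2α or of either variant was followed by no called difference in any of the 30 tested members. The edgeR quasi-likelihood test over all genes, at a Benjamini-Hochberg adjusted p under 0.05, called 0 of 30 for FL against WT (0.0102% of all tested genes), 0 for NCTAD against WT (0.0256%), 0 for cIDR against WT (0.0102%) and 0 for the mean of the 3 constructs against WT (0.0154%). Between constructs, 0 of 30 were called in each of the 3 pairs, and so were 0.00% of all genes. With these shares a count of 0 does not set the members apart from other genes. At an unadjusted p under 0.05 the count was 0 for FL (1.14% of all genes), NCTAD (1.42%), cIDR (1.37%) and the constructs (1.54%) against WT, 0 between NCTAD and FL (0.886%), 0 between cIDR and FL (0.906%), and 1 between cIDR and NCTAD (0.609%). DESeq2 and limma on TPM also called 0 members in all 7. The comparisons with WT share its 4 libraries.

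With the batch added to the model as a replicate block, again 0 members were called in each of the 7 comparisons. The share of all genes called was 0.102% for FL, 0.456% for NCTAD, 0.486% for cIDR and 0.497% for the constructs against WT. Between constructs it was 0.00% (NCTAD and FL), 0.0307% (cIDR and FL) and 0.00512% (cIDR and NCTAD). At an unadjusted p under 0.05 this model had 0 members for FL (5.11% of all genes), 0 for NCTAD (5.96%), 1 for cIDR (5.45%) and 1 for the constructs (6.72%) against WT. Among the pairs of constructs it had 1 between NCTAD and FL (3.69%), 2 between cIDR and FL (3.68%) and 1 between cIDR and NCTAD (2.15%).

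The median log2 fold change of the 30 was 0.0051 for FL, 0.0557 for NCTAD and 0.0198 for cIDR against WT, beside 0.0135, 0.0186 and 0.0097 over all tested genes. The SD of the members' median over the 4 batches was 0.0481, 0.0435 and 0.0736. With 1 library left out at a time they ran from −0.0225 to 0.0923 for FL, −0.0048 to 0.1075 for NCTAD and −0.0363 to 0.1369 for cIDR, and on log2(TPM + 1) the median for NCTAD was −0.0313. Precision differed between members: the SE of the mean of the constructs against WT was 0.06 on the log2 scale for TBK1 and ADAR and 0.45 and 0.51 for CGAS and BST2. With the replicate block the SE of BST2 was 0.23 and that of CGAS 0.46. The log2 fold change of the 2 highest members was −0.0036 ± 0.06 for ADAR and 0.0020 ± 0.21 for OAS3, whose SE was 0.08 with the block.

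Each transfected library was next set against the WT library of its own batch, which gave 12 differences per member. No member was higher in all 12 (1.33% of tested genes were) and none was lower in all 12 (0.461%). The count of higher differences ran from 2 of 12 for DTX3L to 10 of 12 for IRF9. DTX3L was higher in 2 of 4 batches for FL and in 0 of 4 for NCTAD and for cIDR, with differences of −0.48 to 0.08. IRF9 was higher in 3 of 4 for FL, 3 of 4 for NCTAD and 4 of 4 for cIDR, with differences of −0.93 to 0.96. By role, the median difference exceeded 0 in 4 of the 12 for the 5 tested sensors, 8 for the adaptors and kinase, 9 for the transcription factors, 5 for the 10 tested effectors, 8 for ISG15 and USP18, and 5 for the ubiquitin and ADP-ribose genes. Per library the median over the members ran from −0.0688 (cIDR in batch 2, with 12 members higher and 18 lower) to 0.0911 (FL in batch 4, with 19 higher and 11 lower). Over all tested genes the median was 0.0000 and 0.0485 in the same libraries, and it ran from −0.0165 to 0.0544 over the 12 differences. Matching counts of higher and lower genes over all tested genes were not made.

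In the model without the batch, the 4 members with the smallest p for the constructs against WT were IRF9, ISG15, STING1 and TRIM21. That model does not use the pairing of the libraries by batch. Its estimate of the spread between libraries (biological coefficient of variation) was 0.245, against 0.108 with the replicate block. Unless the block is named, values of the comparisons between groups come from the model without it. IRF9, the DNA-binding part of the interferon-activated complex, had 2.59, 2.57, 2.48 and 3.40 CPM in the WT libraries of batches 1 to 4 and 5.07, 4.82, 3.74 and 1.77 CPM in FL. In NCTAD IRF9 had 2.74, 4.34, 3.22 and 3.40 CPM, and in cIDR 3.14, 3.70, 3.28 and 3.88 CPM. FL held both the highest and the lowest IRF9 value of all 16 libraries, and the groups overlapped. Its log2 fold change for the constructs was 0.38 ± 0.21 (SE, unadjusted p = 0.0961, edgeR adjusted p = 1.00), and it ran from 0.31 without the WT library of batch 3 to 0.49 without that of batch 4. For FL against WT it was 0.48 ± 0.26, with 0.31 without the FL library of batch 1 and 0.70 without that of batch 4.

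STING1 had 0.668, 0.521, 0.362 and 0.637 CPM in WT, 0.995, 0.666, 0.537 and 0.498 in FL, 0.976, 0.888, 0.760 and 0.495 in NCTAD, and 0.920, 0.951, 0.477 and 0.632 in cIDR, for batches 1 to 4. Transfected libraries were above WT in batches 1 to 3 and below it in batch 4. The log2 fold change for the constructs was 0.41 ± 0.26 (edgeR adjusted p = 1.00). The value for FL was 0.29 ± 0.32, that for NCTAD 0.51 ± 0.32 and that for cIDR 0.44 ± 0.32. Without the WT library of batch 3 the values were 0.25 for the constructs, 0.34 for NCTAD and 0.28 for cIDR, and without the FL library of batch 1 that for FL was 0.04.

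TRIM21 had 0.668, 1.86, 1.81 and 1.16 CPM in WT and 1.25, 2.52, 2.32 and 1.56 CPM in cIDR, higher in 4 of 4 batches. The ranges overlapped because the batches differed more than the groups. Its log2 fold change for cIDR was 0.48 ± 0.36 (SE, edgeR adjusted p = 1.00). With the replicate block it was 0.51 ± 0.21, with an unadjusted p of 0.0270 and an adjusted p of 0.823. Without the WT library of batch 1 the unblocked value was 0.25, and without that of batch 2 it was 0.66.

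Between constructs, IFI27, a mitochondrial interferon-induced protein, had 0.557, 0.727, 0.977 and 0.645 CPM in NCTAD, 1.35, 1.02, 0.955 and 1.02 in cIDR, and 1.16, 1.14, 0.731 and 0.876 in FL. The NCTAD library of batch 3 lay inside the range of cIDR, and the other 3 below it. The log2 fold change of cIDR against NCTAD was 0.57 ± 0.24 (unadjusted p = 0.0303, edgeR adjusted p = 1.00), higher in 3 of 4 batches. IRF1, a transcription factor that acts early after infection, had 1.94, 1.63, 2.26 and 2.69 CPM in FL and 2.46, 2.42, 3.35 and 2.88 CPM in NCTAD, higher in 4 of 4 batches, with a log2 difference of 0.39 ± 0.23 (edgeR adjusted p = 1.00). OAS1 was lower in cIDR than in FL in 4 of 4 batches, at 15.9, 18.7, 17.2 and 19.4 against 17.2, 23.4, 20.6 and 21.5 CPM. Its log2 fold change was −0.21 ± 0.13, and −0.21 ± 0.07 with the replicate block, with an unadjusted p of 0.00588 and an adjusted p of 1.00. None of these 3 differences passed the test. With 1 library left out at a time, IFI27 ran from 0.45 to 0.75, IRF1 from 0.27 to 0.52 and OAS1 from −0.29 to −0.15.

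The remaining members among the 4 smallest p of a comparison had small or poorly determined values. For FL against WT, USP18 had a log2 fold change of 0.42 ± 0.48, and 0.15 without the FL library of batch 4. For NCTAD against FL, TBK1 had 0.11 ± 0.07 and IRF7 0.16 ± 0.17, and for cIDR against FL IRF7 had 0.15 ± 0.17. With 1 library left out, IRF7 ran from 0.09 (without FL of batch 2) to 0.30 (without FL of batch 4) for NCTAD, and from 0.04 (without cIDR of batch 4) to 0.30 (without FL of batch 4) for cIDR. CGAS had 0.43 ± 0.55 for cIDR against FL, which turned to −0.14 without the cIDR library of batch 4, where it had 28 counts. For cIDR against NCTAD, TBK1 had −0.11 ± 0.07, SAMD9 −0.41 ± 0.42 and ADAR −0.07 ± 0.07. SAMD9 ran from −0.70 without the cIDR library of batch 2 to −0.15 without that of batch 1.

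ISG15 was the only member with the 3 differences from WT of one sign in batch 2 and all 9 others of the opposite sign, a pattern found in 0.445% of tested genes. It had 1.73, 1.74 and 1.95 CPM in WT of batches 1, 3 and 4 and 2.03 to 2.77 CPM in the 9 transfected libraries of those batches, with no overlap. In batch 2 it had 2.61 CPM in WT and 1.92, 2.20 and 2.43 CPM in FL, NCTAD and cIDR. The single WT library of batch 2 thus held the highest ISG15 value of WT, with 140 counts. The log2 response to transfection in batch 2 minus that in the other batches was −0.69 ± 0.25 (SE, unadjusted p = 0.0173, edgeR adjusted p = 1.00). USP18, which removes ISG15 from proteins, had −1.28 ± 0.58 for the same term of the edgeR model across all genes (unadjusted p = 0.0454, edgeR adjusted p = 1.00), from 0.447 CPM in WT and 0.352, 0.242 and 0.246 CPM in the transfected libraries of batch 2. OAS1 and IFI6 followed with −0.23 ± 0.11 and −0.34 ± 0.20. This interaction called 0 of 30 members (0.00512% of all genes), had 2 under an unadjusted p of 0.05 (1.56% of all genes), and rests on 1 WT library per batch. Without WT of batch 2, the ISG15 log2 fold change for the constructs against WT was 0.40, and without WT of batch 3 it was 0.16, against 0.24 with all libraries.

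Batches, in contrast, separated many members. In batch 2 against the mean of the other 3, with the group in the model, BST2, ISG20 and IFIT1 were higher by 1.61, 1.32 and 1.03 on the log2 scale, and OAS3, DTX3L and IFIT3 were lower, with log2 fold changes of −0.59, −0.51 and −0.77. Called members numbered 15 of 30 (50%), beside 53.9% of all tested genes. Higher calls numbered 10 (27.7% of all genes) and lower calls 5 (26.1%). The members' share was therefore near that of the other genes. The median over the 30 was 0.0932, beside 0.0349 over all genes. Its SD over the 4 groups was 0.0927, and with 1 library left out it ran from 0.0496 (without WT of batch 2) to 0.1295. The 4 libraries of a batch share it and batch 2 was picked with earlier results of these data known, so the test speaks of these batches only.

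BST2 had 1.10, 1.12, 1.51 and 1.46 CPM in WT, FL, NCTAD and cIDR of batch 2, and 0.235 to 0.655 CPM in the other 12 libraries. Its counts were low, 57 to 83 in batch 2 and 10 to 27 elsewhere, but the sets did not overlap. Its log2 fold change was 1.61 ± 0.20 (edgeR adjusted p = 9.81e-06). ISG20 had 2.42, 2.31, 2.04 and 1.94 CPM in batch 2 and 0.564 to 1.15 CPM elsewhere, with a log2 difference of 1.32 ± 0.17 (edgeR adjusted p = 1.57e-05). IFIT1 had 1.81, 2.02, 1.92 and 2.43 CPM in batch 2 and 0.568 to 1.56 CPM elsewhere, with a log2 difference of 1.03 ± 0.18 (edgeR adjusted p = 2.48e-04). All 4 groups of batch 2, WT included, were high for these 3 genes.

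Smaller rises covered signalling and other effectors. STAT2, the transactivating partner of IRF9, had 11.1 to 12.9 CPM in batch 2 and 5.71 to 9.70 elsewhere, a log2 fold change of 0.60 ± 0.08. PARP14 had 9.47 to 9.96 CPM against 3.81 to 8.78 (0.58 ± 0.07). For IFI6 the values were 10.4 to 12.3 against 6.68 to 9.60 CPM (0.51 ± 0.09), and for MAVS 134 to 149 against 97.9 to 118 CPM (0.36 ± 0.05). These 4 did not overlap with the other batches either. IRF3 (0.33 ± 0.06), OAS1 (0.24 ± 0.05) and TRIM21 (0.63 ± 0.16) were called with overlapping libraries. TRIM21 lost its call when batch 1 was left out, with 0.38 (edgeR adjusted p = 0.0754).

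Among the 5 lower members, OAS3 had 98.6 to 117 CPM in batch 2, 100 to 145 in batch 1 and 170 to 199 in batches 3 and 4, a log2 fold change of −0.59 ± 0.08 for batch 2. DTX3L had 9.51 to 11.1 CPM in batch 2, 9.05 to 12.6 in batch 1 and 14.7 to 18.3 in batches 3 and 4 (−0.51 ± 0.08). Both genes were thus low in batches 1 and 2 alike. IFIT5 had 32.0 to 34.0 CPM in batch 2 and 36.4 to 40.8 elsewhere (−0.22 ± 0.04), the only lower member without overlap. IFIT3 had 19 to 30 counts in batch 2 (0.370 to 0.606 CPM against 0.441 to 1.10), with −0.77 ± 0.22. IRF1 had 1.63 to 2.42 CPM against 1.75 to 3.48, with −0.34 ± 0.13 (edgeR adjusted p = 0.0411). IRF1 lost its call in 16 of the alternatives (−0.26 without the cIDR library of batch 2, edgeR adjusted p = 0.172), and IFIT3 in 4 (−0.65 without group FL, edgeR adjusted p = 0.0589). Groups without overlap numbered 8 of the 30 members, 7 higher and 1 lower, beside 29% of all tested genes.

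Some neighbouring members were called in opposite directions in batch 2. On chromosome 10 of GRCh38.p14, IFIT3 (chr10:89327997-89340968) and IFIT5 (chr10:89414568-89420997) were lower while IFIT1 (chr10:89392623-89406487), which lies between them, was higher. IFIT2 (chr10:89302046-89309271), next to IFIT3, had −0.30 ± 0.13 and was not called (edgeR adjusted p = 0.0683). On chromosome 12, OAS1 (chr12:112906962-112933219) was higher and OAS3 (chr12:112938474-112973251) lower. On chromosome 3, PARP14 (chr3:122680839-122730840) was higher and DTX3L (chr3:122564338-122575203) lower, with PARP9 (chr3:122527924-122564784) at 0.04 ± 0.08. In GENCODE 29, exons of DTX3L and PARP9 overlap on opposite strands, and so do those of IRF3, OAS1, ISG15, IRF1, EIF2AK2, TBK1, CGAS, RSAD2, IFIT2 and TRIM25 with genes outside the list, such as BCL2L12 for IRF3 and CMPK2 for RSAD2. The library kit keeps strand, but whether counting used it is not stated in the labels, so reads of these partners may not be fully separated. On the same strand, where strand gives no help, IRF9 overlaps AL136295.5, TRIM25 overlaps C17orf67 and MIR3614, IFIT2 overlaps AL353751.1 and IFITM1 overlaps IFITM2, so the values of these members are uncertain in that respect.

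**Figure D1:**
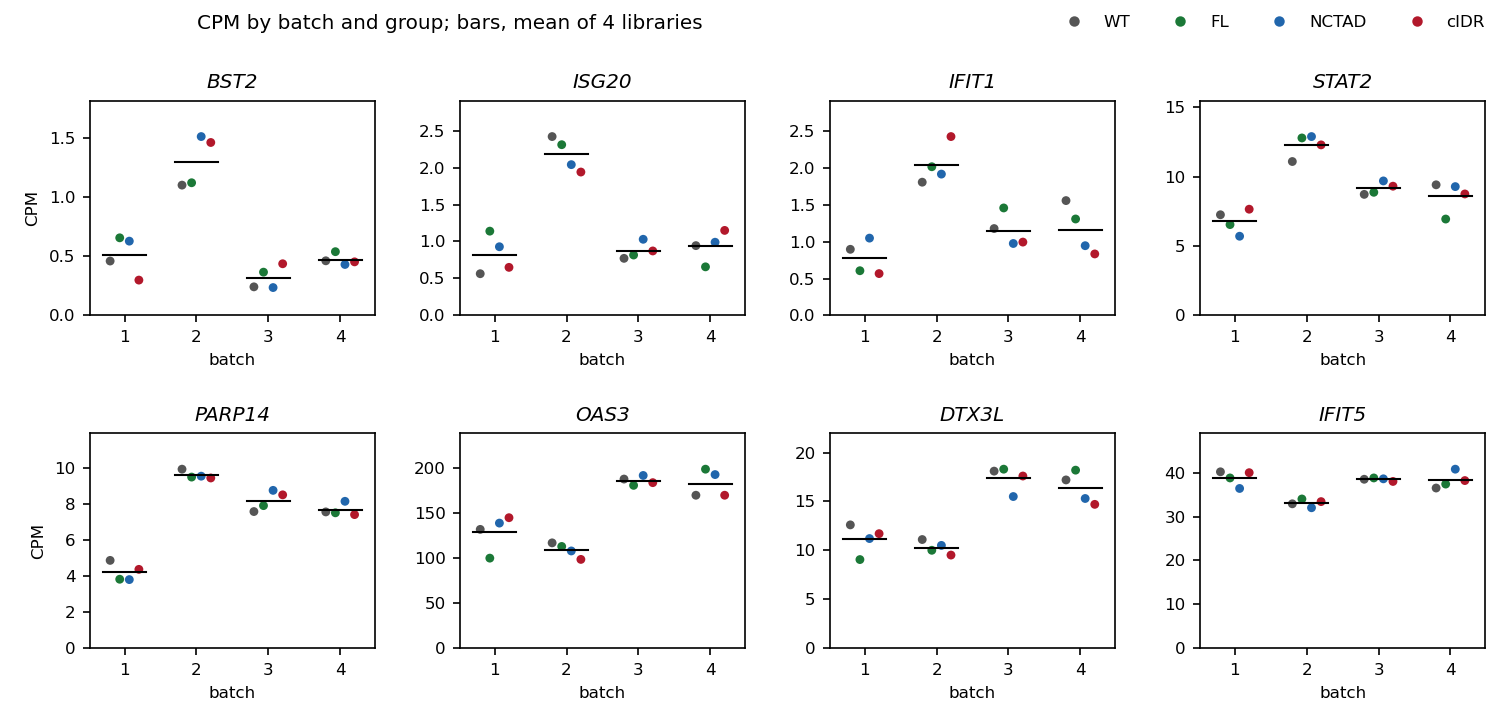
CPM of 8 members (vertical axes from 0) by batch; each point is 1 library coloured by group, and the bar is the mean of the 4 libraries of a batch. BST2, ISG20, IFIT1, STAT2 and PARP14 sit highest in batch 2 in every group, IFIT5 sits lowest there, and OAS3 and DTX3L are low in batches 1 and 2.

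Other measures moved with batch 2. Of 12 hypoxia-induced genes, 10 were called higher, all but SLC2A1 (0.05) and LDHA (−0.11), and the list summed to 827 to 1398 CPM in batch 2 and 307 to 582 CPM elsewhere. The 25 markers of other cell types summed to 80.2 to 84.1 TPM in batch 2 and 36.5 to 54.6 TPM elsewhere, mainly through LUM and DCN of the 6 fibroblast markers. The fibroblast markers summed to 67.7 to 72.5 TPM against 25.1 to 39.3 TPM. Among them LUM (1.45), DCN (0.88) and COL1A1 (1.31, from 265 to 329 counts in batch 2 and 80 to 129 elsewhere) were called higher without overlap. PDGFRA (0.40) and COL3A1 (−0.53) were not called, and COL1A2 was not tested, with 0 to 4 counts per library. The 3 endothelial markers summed to 0.272 to 0.556 TPM against 0.0244 to 0.275 TPM, with CDH5 (2.22 ± 0.34, from 21 to 49 counts in batch 2 and 1 to 18 elsewhere) and VWF (2.03 ± 0.23, from 41 to 77 against 4 to 34 counts) called higher without overlap. The 12 immune markers summed to 1.75 to 2.54 TPM against 1.30 to 2.03 TPM, and of the 2 tested CD14 was called higher (0.49 ± 0.14, from 73 to 84 counts against 32 to 73). The epithelial markers did not rise, with a sum of 8.68 to 9.84 TPM in batch 2, inside the range of the other libraries. Among them KRT19 (−0.16) and EPCAM (0.42) were not called. The part of the hypoxia-induced genes and of these markers in the members' values was not tested. In bulk RNA, a change in the number of cells of a type and a change in RNA per cell cannot be told apart.

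The other batches were set against the rest in the same way, with the caution that these contrasts share libraries, so a high batch 2 lowers the others. In batch 1, 13 of 30 members were called (43.3%, beside 24.7% of all genes), and all 13 were lower (9.77% of all genes were called lower and 14.9% higher). The median was −0.2594, beside −0.0049 over all genes. All 5 ubiquitin and ADP-ribose genes were among them. PARP14 had 3.81 to 4.88 CPM in batch 1 and 7.43 to 9.96 elsewhere, a log2 fold change of −1.0 ± 0.08. TRIM25 had 21.7 to 25.1 CPM against 29.2 to 37.9 (−0.52 ± 0.06), and PARP9 5.02 to 7.06 against 7.43 to 10.3 (−0.55 ± 0.09). OAS1 (−0.33 ± 0.05) and SAMD9 (−1.13 ± 0.25) also did not overlap, which made 5 of 30 without overlap, beside 3.44% of all genes. SAMD9 had only 6 to 19 counts in batch 1, and its highest value there, 0.397 CPM, nearly met the lowest elsewhere, 0.406 CPM. STAT2 (−0.54), TRIM21 (−0.90), DTX3L (−0.36), EIF2AK2 (−0.25), IFIT1 (−0.84), OAS3 (−0.27), USP18 (−1.03) and MAVS (−0.17) completed the 13. USP18 had 4 to 15 counts in batch 1. A test of the list itself was not made. Of the 12 hypoxia-induced genes, 7 were also called lower in batch 1 and 0 higher, and of the 11 tested markers of other cell types 3 were (LUM, −0.62, DCN, −0.50, and CDH5, −1.28) and 0 higher. Their part in the members' values was not tested here either.

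In batch 3, 8 of 30 members were called (26.7%, beside 16% of all genes), 6 of them higher (7.66% of all genes) and 2 lower (8.31%). The higher were DTX3L (0.49), OAS3 (0.44), PARP9 (0.35), PARP14 (0.28), TRIM25 (0.25) and EIF2AK2 (0.18), and the lower were BST2 (−1.09) and IRF3 (−0.27). In batch 4, 4 members were called (13.3%, beside 13.4% of all genes), all higher (6.57% of all genes, with 6.87% called lower): OAS3 (0.41), DTX3L (0.38), TRIM25 (0.24) and EIF2AK2 (0.18). Beside these, 6 of the 12 hypoxia-induced genes were called lower in batch 3 and 5 in batch 4, among them NDRG1 (−1.14 and −1.22). The markers COL1A1 (−0.55 and −0.43) and LUM (−0.42 and −0.40) were called lower in both batches, and VWF (−0.99) in batch 4. Their part was not tested. Called in both batch 1 and batch 2 were 8 of the 30 members, beside 18.4% of all genes. Called in none of the 4 batch contrasts were 10 of the 30, beside 39.3% of all genes: ADAR, CGAS, IFI27, IFIT2, IRF7, IRF9, ISG15, RSAD2, STING1 and TBK1. ADAR and TBK1 were the steadiest of these, with 325 to 398 and 54.0 to 66.4 CPM over the 16 libraries.

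**Figure D2:**
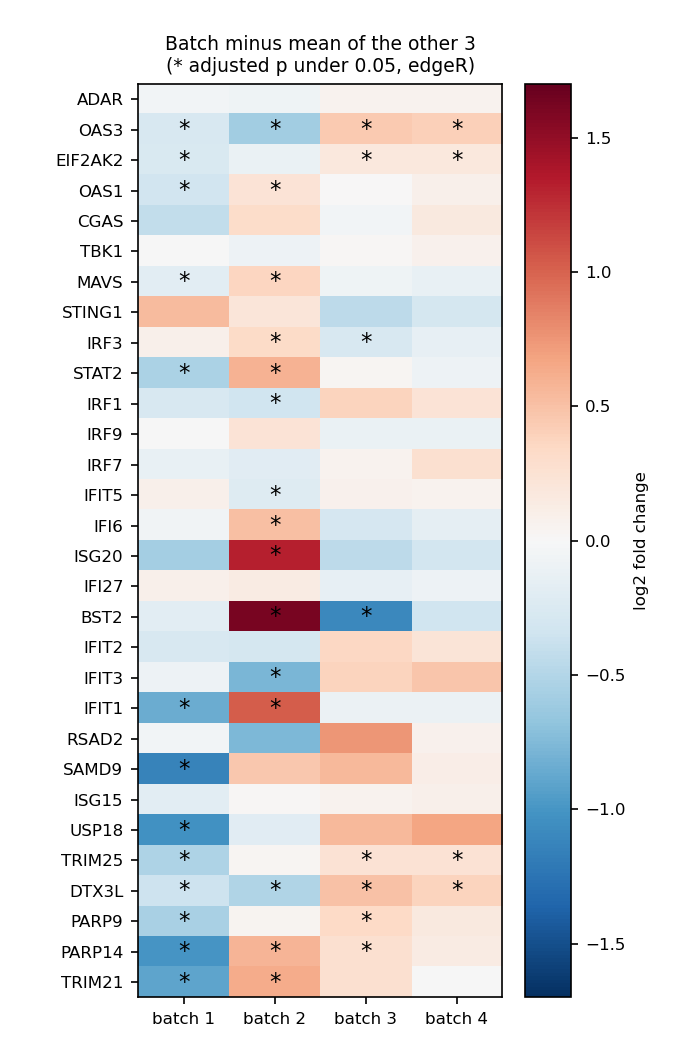
Log2 fold change (colour) of each batch against the mean of the other 3 for the 30 tested members, with stars at an edgeR adjusted p under 0.05. Batch 1 is lower in 13 members and higher in none, and batch 2 is higher in 10 and lower in 5.

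The rest of the pathway was read from a list of 106 further genes, of which 73 were tested. All 9 interferon genes listed (IFNA1, IFNA2, IFNB1, IFNE, IFNK, IFNG, IFNL1, IFNL2 and IFNL3) had 0 counts in every library. The receptor chains were present, IFNAR1 at 20.6 and IFNAR2 at 7.78 TPM, as were JAK1 at 11.3 and TYK2 at 46.1 TPM, the kinases behind them. RIGI, the gene of RIG-I, was not tested, with 0 to 6 counts in 14 libraries, 21 in FL of batch 3 and 25 in cIDR of batch 3. The chemokine genes CXCL9, CXCL10 and CCL5, strong interferon targets, were at 0 throughout. None of the 73 was called in any of the 7 group comparisons, with or without the replicate block. At an unadjusted p under 0.05 in the model without the block, 4 of the 73 were higher and 0 lower for the constructs against WT, beside 1.54% of all genes. With the block 7 were higher and 3 lower, beside 6.72% of all genes.

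By role, the smallest unadjusted p values for the constructs against WT belonged to IFNGR2 (0.09 ± 0.09) among the receptors, SOCS1 (0.75 ± 0.32 on the log2 scale) among receptor signalling, TLR4 (−0.22 ± 0.19) among sensors and adaptors, ENPP1 (1.27 ± 0.43) among nucleic acid clearance, ETV6 (−0.15 ± 0.10) among transcriptional regulators and LY6E (0.16 ± 0.07) among other interferon-induced genes. SOCS1 had 5 to 23 counts and ENPP1, which hydrolyses the messenger made by CGAS, 4 to 35. LY6E, a surface protein, had 89.9 to 96.6 CPM in the WT libraries and 96.9 to 122 CPM in the 12 transfected ones, without overlap (edgeR adjusted p = 1.00, and 0.284 with the replicate block).

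Batch 2 differed in 45 of the 73, with 24 higher and 21 lower. Of 7 tested receptor signalling genes 5 were lower and 0 higher, among them JAK1 (−0.21), JAK2 (−0.53), TYK2 (−0.22) and STAT3 (−0.15). Nucleic acid clearance split, with genes such as DNASE2 (1.08) and RNASET2 (0.64) higher and RNASEH2A (−0.45), RNASEH2B (−0.49), RNASEH2C (−0.39), SAMHD1 (−0.39) and PNPT1 (−0.44) lower. The RNASEH2 genes encode the 3 subunits of ribonuclease H2. Of 29 tested interferon-induced genes 13 were higher, among them GBP4 (2.86, from 28 to 37 counts in batch 2 and 1 to 11 elsewhere), SHFL (2.17), UBE2L6 (1.75, from 19 to 24 counts in batch 2 and 1 to 14 elsewhere), HELZ2 (1.24), GBP2 (0.73) and DDX60 (0.70), and 4 were lower: CMPK2 (−1.03), TENT5A (−0.40), LAP3 (−0.35) and TRAFD1 (−0.27). Receptors had 2 higher (IL10RB, 0.48, and IFNGR2, 0.19) and 1 lower (IFNAR1, −0.17), sensors and adaptors 4 and 4, and transcriptional regulators 2 and 2, with BATF2 (1.32) and ETV6 (0.22) higher and IRF2BP1 (−0.37) among the lower. BATF2 had 11 to 23 counts in batch 2 and 1 to 10 elsewhere, and SHFL had 46 to 72 and 2 to 26. MYD88 (−0.42), the adaptor of most Toll-like receptors, was lower and TICAM1 (0.35), that of TLR3, higher. Among all genes 53.9% were called in batch 2, 27.7% higher and 26.1% lower, and these shares belong beside each count given here. No test of these sets was made.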

How the data were processed

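The estimated counts and the TPM values per gene were made by the authors and are used as deposited, with gene symbols from the tables. The submitters' processing notes name fastp, STAR, Salmon, featureCounts and GRCh38. Their versions, the annotation and the strand setting of counting are not given in the sources used here. Of the estimated counts 15.5% were not whole and were rounded. edgeR 4.0.16 was used with TMM scaling, its low-count filter by group and a quasi-likelihood test over 19530 genes in 1 model of 16 libraries. Batch contrasts had batch and group as terms. SE were derived from the fold change and its F statistic, and CPM use TMM-scaled totals of the tested genes. DESeq2 1.42.0, limma 3.58.1 on log2(TPM + 1) and log2(TPM + 0.1), other scaling and filters, a replicate block and left-out libraries, groups and batches were alternatives. Code was tested on simulated data.

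The labels give the replicate number as the batch, which pairs the libraries: deviations from group means correlated at a mean of 0.308 for the same number and −0.0945 for different ones. No 2 libraries of a group agreed within sampling noise.

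The members, lists and tests were chosen with earlier results of these data known. Named with values were the 4 members with the smallest p per comparison, every called member, and the highest and lowest per role. Between groups that p was taken from the model without the replicate block. Of the other pathway genes, the smallest p per role and genes called in batch 2 were named, some only by count. ISG15 was also described by batch after its values were seen. Results for some pathway genes are not reported here.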

Additional observations from a re-analysis of the deposited data

Results flagged for a closer look

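In 6 of the 120 sets of 4 libraries examined (30 members in 4 groups), 1 library lay far from the other 3 of its group, where chance alone flags about 1 set in 20. Of these, 3 were libraries of batch 2: IFIT1 had 1.92 CPM and ISG20 2.04 CPM in NCTAD replicate 2, against 0.947 to 1.05 and 0.929 to 1.03 CPM in the other NCTAD libraries, and BST2 had 1.46 CPM in cIDR replicate 2, against 0.298 to 0.452 CPM. IRF9 had 3.40 CPM in WT replicate 4, against 2.48 to 2.59 CPM in the other WT libraries. IFI27 had 1.35 CPM in cIDR replicate 1, against 0.955 to 1.02 CPM. ISG15 had 2.50 CPM in NCTAD replicate 3, against 2.20 to 2.23 CPM.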

How the results depend on the processing

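No alternative called a member in any comparison between groups. With the replicate block the members' median log2 fold change was −0.0054 for FL, 0.0506 for NCTAD, 0.0327 for cIDR and −0.0025 for the constructs against WT, with 0 members called, and 0 also when batch 2 was left out of the block model, a setting added after the data were seen. On log2(TPM + 1) the median was −0.0313 for NCTAD against WT, and single values turned for STING1 in FL against WT (−0.0042), TBK1 in NCTAD against FL (−0.0923) and IRF7 in cIDR against FL (−0.0428). On log2(TPM + 0.1) the medians were −0.0501 for FL, −0.0482 for NCTAD and −0.0390 for the constructs against WT and −0.0457 for NCTAD against FL, with TBK1 at −0.0947 and IRF7 at −0.0522. The cause was not tested. Leaving out 1 library at a time gave medians of −0.0225 to 0.0923 for FL, −0.0048 to 0.1075 for NCTAD, −0.0363 to 0.1369 for cIDR and −0.0348 to 0.0979 for the constructs against WT, lowest without WT replicate 1 and highest without WT replicate 2. Between constructs they were −0.0440 to 0.0636 for NCTAD against FL, −0.0489 to 0.0388 for cIDR against FL and −0.0688 to 0.0782 for cIDR against NCTAD. CGAS in cIDR against FL ran from −0.1435 without cIDR replicate 4 to 0.6667 without cIDR replicate 3. For batch 2 the median ran from 0.0496 to 0.1295 and the count of called members from 14 to 18. Over all alternatives that count was 11 (limma on TPM) to 20 (batch 1 left out). Members with few counts, such as CGAS, RSAD2, SAMD9 and USP18, limit what can be seen at this depth.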
